A study of Homo sapiens with 7 samples.

Results

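Dense clusters of H3K27ac peaks were described in day 15 cardiac cells made from the established human embryonic stem cell line H1 and treated with CHIR. They were chosen by the positions of the peaks alone. Peaks on assembled chromosomes were joined when the gap between them was at most 12500 bp, and a joined region was called dense when it held 10 or more peaks. This gave 389 dense regions among 15733 joined regions (2.47%), and 6113 of 36585 peaks (16.7%) lay in them. The other 30472 peaks lay in smaller regions or joined no other peak.

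H3K27ac is acetylation of lysine 27 on histone H3, a mark placed on nucleosomes beside active promoters and active enhancers, the regulatory stretches that raise transcription of genes at a distance. Some stretches in which many such elements stand close together have been described as super-enhancers. These are often found around genes that set a cell's identity. The dense regions here were chosen by peak positions and not by signal. Whether any of them is a super-enhancer was not tested. CHIR commonly stands for CHIR99021, which blocks the kinase GSK3, stabilises beta-catenin and so switches on canonical Wnt signalling.

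The peak list stood for 2 H3K27ac immunoprecipitation replicates of day 15 CHIR cells that the labels give as merged, so no value has a replicate error. The labels list 2 replicates of input chromatin from the same cells, which were not analysed here, and they state no dose of CHIR and no days of treatment. No DMSO or day 11 peak list was used, so nothing can be said about what CHIR changed. The immunoprecipitation was made on many cells at once, so a mark in few cells and a weak mark in many cannot be told apart. A single-cell RNA library of live-sorted day 15 CHIR cells, with 81076689 transcript counts (unique molecular identifiers) in 5607 cells, was used to see which cell types that condition held. In CPM, each gene's counts scaled to a common total, markers of heart muscle summed to 5149 (7 of 7 genes listed, 1.22 for MYH7 to 1712 for TNNI1), those of mesenchyme to 2536 (6 of 6) and those of smooth muscle to 663 (4 of 4). Single genes ran from 150 (DCN) to 778 (COL3A1) in mesenchyme and from 5.24 (MYH11) to 338 (ACTA2) in smooth muscle. Epicardial, endothelial, endoderm, neural and pluripotency markers summed to 56.7, 41.7, 8.92, 6.38 and 0.370, and neither of 2 blood markers, PTPRC and HBG1, was listed. Most of the epicardial sum was TCF21 (44.5), with the other genes at 1.01 to 8.87. Most of the endothelial sum was KDR (33.3), with the other genes at 1.38 to 3.01. The protocol calls the immunoprecipitated cells cardiomyocytes. In the RNA library markers of that cell type stood beside high mesenchymal markers, and the part of either cell type in the H3K27ac peaks was not tested.

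All positions are on hg19 and count from 1. No gene annotation of that build was used, so no gene, exon or intron is assigned to a region, and no sequence is shown. Since the positions and strengths come from 1 list and the same contrast that chose the members, every comparison below is a description and carries no test.

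Dense regions were few, and most were near the threshold. The number of joined regions fell steeply with their size, from 8000 peaks that joined no other to 106 regions of 9 peaks and 74 of 10. Of the dense regions 241 held 10 to 14 peaks, 77 held 20 or more and 23 held 30 or more. The median was 13 peaks and the largest held 65. The 77 regions of 20 or more peaks contained 2186 peaks, 35.8% of all members, and lay on 20 chromosomes.

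**Figure D1:**
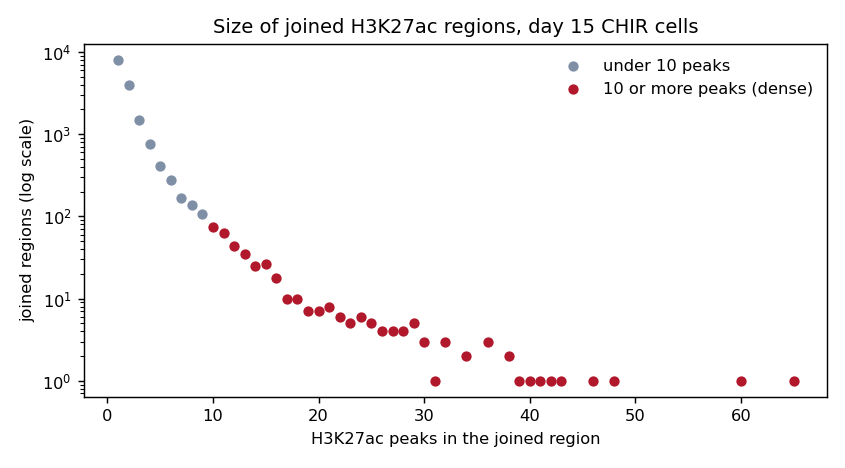
Number of joined regions (vertical axis, log scale) by the number of H3K27ac peaks they hold (horizontal axis), with regions of 10 or more peaks in red. Counts fall without a break across the threshold, from 106 regions of 9 peaks to 74 of 10, and 1 region holds 65 peaks.

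Regions on either side of the threshold were alike in the measures taken. Regions of 9 peaks had a median span of 25470 bp, a median of 4779 bp under peaks and a median strongest peak of 13.5-fold enrichment. In regions of 10 peaks these were 27568 bp, 5416 bp and 13.3-fold. The median fold enrichment over their peaks was 5.39 and 5.34. No step was seen at 10 peaks.

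A dense region was mostly uncovered sequence between peaks. Spans ran from 9682 to 127457 bp with a median of 35798 bp (interval of the median over regions 33736 to 37775), 88 regions were longer than 50 kb, and 7 were longer than 100 kb. Bases under peaks ran from 2905 to 43353 bp per region, with a median of 7665. Peaks covered a median of 22.1% of the span (21.2 to 23.6), with quartiles at 16.5% and 31.0%. This was not particular to dense regions, since the median was 21.4% in regions of 5 to 9 peaks. In regions of 2 to 4 peaks it was 65.4%. Only 15 regions were covered over more than 50% of their span and 10 over less than 10%. In all, the dense regions spanned 15.5 Mb, of which 3.62 Mb lay under peaks. That was 16.8% of all bases under peaks, about the same as their 16.7% share of peaks.

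**Figure D2:**
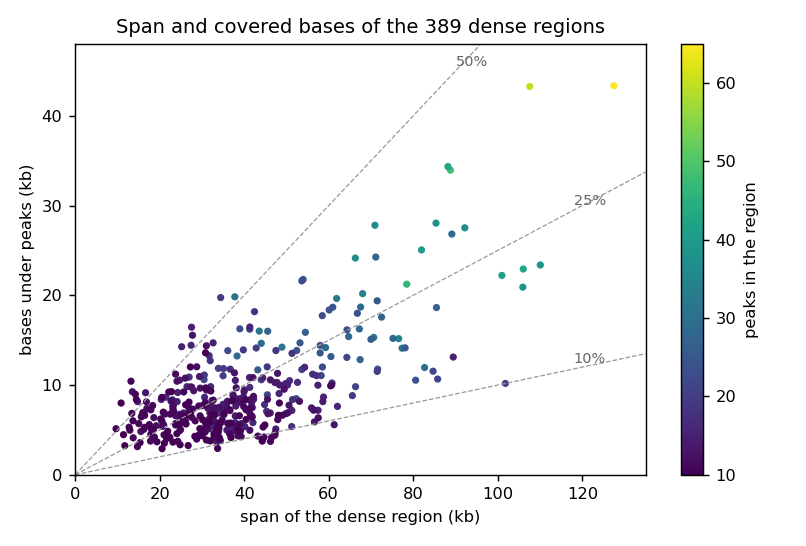
Span in kb (horizontal axis) and bases under peaks in kb (vertical axis) of each of the 389 dense regions, coloured by the number of peaks, with dashed lines at covered shares of 10%, 25% and 50%. Most regions lie between the 10% and 50% lines, and the regions of 65 and 60 peaks stand apart at the upper right with over 43 kb under peaks each.

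Dense regions with more peaks were longer and, in the classes of 20 or more peaks, more covered. Across the 389 regions the number of peaks went with the span (Spearman's rho 0.65) and with the bases under peaks (0.75), whereas the covered share went down with the span itself (−0.40). These measures share the peak positions, so the values describe the regions and carry no p. The median covered share was 21.3% in regions of 10 to 14 peaks, 21.6% at 15 to 19, 25% at 20 to 29 and 29.9% at 30 or more.

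Within dense regions, short gaps between peaks were mixed with much longer ones. Of 5724 gaps, 2754 (48.1%) were at most 500 bp and 882 (15.4%) were longer than 5000 bp. The median gap was 548 bp, with quartiles at 184 and 2724 bp, and the shortest was 51 bp, also the shortest in the whole list. In regions of 5 to 9 peaks the median gap was 549 bp and 48.4% were at most 500 bp, close to the values in dense regions. Long gaps took a larger share there, with an upper quartile of 3788 bp and 20.3% longer than 5000 bp. In regions of 2 to 4 peaks gaps were shorter, with a median of 324 bp and 60.8% at most 500 bp.

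Many peaks stood so close that they could be counted as 1. When peaks at most 500 bp apart were joined into a block, the 6113 peaks formed 3359 blocks, of which 1834 (54.6%) were single peaks. A region held 2 to 33 blocks with a median of 8, and 100 of the 389 regions held 10 or more. There were 92 blocks longer than 5 kb. The longest, at chr4:174437884-174452811, ran over 14928 bp in 8 peaks of a region of 10. Summits of neighbouring peaks were a median of 1277 bp apart. Of 5724 such pairs 1157 (20.2%) were 400 to 700 bp apart and 90 (1.57%) under 300 bp.

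Peaks in dense regions were on the whole weaker than other peaks. The fold enrichment that the authors deposited for each peak had a median of 5.22 in the 6113 members (quartiles 4.40 and 6.92) and of 5.81 in the 30472 other peaks (4.66 and 9.65), a ratio of 0.899. The intervals of these medians were 5.19 to 5.30 and 5.78 to 5.82, over peaks that are not independent. The order went down step by step with the size of the region, from 6.34 for peaks that joined no other to 5.85 in regions of 2 to 4 peaks, 5.39 in regions of 5 to 9 and 5.22 in dense ones. Inside the dense class the medians were 5.33 in regions of 10 to 14 peaks, 5.19 at 15 to 19, 5.19 at 20 to 29 and 5.10 at 30 or more. The last 3 lie within each other's intervals of the median (5.04 to 5.29, 5.09 to 5.33 and 5.01 to 5.20).

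The difference was largest among strong peaks. A fold enrichment of at least 10 was reached by 704 members (11.5%) and by 7282 other peaks (23.9%). Among peaks that joined no other it was reached by 2594 (32.4%). In regions of 5 to 9 peaks 1070 peaks (15.4%) reached it, a share much nearer that of the members. At least 20-fold was reached by 158 members (2.58%) and 2376 others (7.80%), and by 286 peaks (4.12%) in regions of 5 to 9. The strongest member had 49.5-fold enrichment, while the strongest peak of the list, 78.7-fold, lay in a region of 2 to 4 peaks. The median −log10 q was 9.72 in members, 11.4 in other peaks and 9.91 in regions of 5 to 9 peaks.

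**Figure D3:**
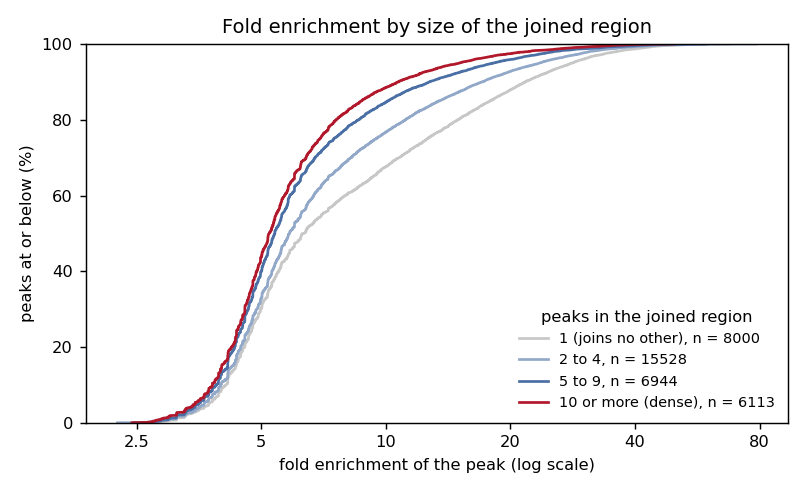
Cumulative share of peaks (vertical axis, %) at or below each fold enrichment (horizontal axis, log scale), by the number of peaks in the joined region. The curve of the 6113 peaks in dense regions lies to the left of the others, and the curve of the 8000 peaks that join no other lies farthest right, with medians of 5.22 and 6.34.

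The medians of width differed little, but peaks of at least 3000 bp took a larger share of the members. Members had a median width of 362 bp (quartiles 237 and 687) and other peaks 387 bp (239 and 735). The median was 351 bp in regions of 5 to 9 peaks, 382 bp in regions of 2 to 4 and 444.5 bp for peaks that joined no other. At least 2000 bp was reached by 239 members (3.91%) and 894 others (2.93%). In those 3 classes of other peaks the share was 3.18%, 2.38% and 3.79%, so lone peaks came near the members. At least 3000 bp was reached by 78 members (1.28%) and 134 others (0.440%), and the widest peak of a dense region measured 9125 bp against 8246 bp elsewhere. The median ratio turned to 1.03 when only peaks of at least 5-fold enrichment were joined.

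Most dense regions held 1 to a few strong peaks among many weak ones. The strongest peak of a region had a median fold enrichment of 14.9 (lowest 4.86, highest 49.5), while the median peak of a region was at 5.28. A maximum over more peaks is higher by construction, and the strongest peak had a median of 12-fold in regions of 5 to 9 peaks and 9.48-fold in regions of 2 to 4. At least 1 peak of 10-fold was present in 310 regions, of which 114 held exactly 1 and 196 held more, up to 8. The strongest peak was also the widest in 190 of 389 regions. The widest peak alone made up a median of 22.2% of a region's covered bases, from 7.86% to 62.1%.

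Strong peaks stood all along the region, with a slightly larger share at its ends. The strongest peak was the first or the last of its region in 73 of 389 cases, and the number expected from region size was not worked out. The median fold enrichment was 5.29 in the first and in the last 20% of the span, and 5.19 to 5.23 in the 3 stretches between. The share of peaks of at least 10-fold was 13.2% and 12.2% at the ends and 9.62% to 11.3% between. The 778 end peaks had a median of 5.39-fold and a median width of 355 bp, and the 5335 inner peaks 5.19-fold and 363 bp.

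Dense regions were also grouped by the height of their strongest peak, cut at 10-fold and 20-fold. In 79 regions (20.3%) no peak reached 10-fold, in 184 the strongest was between 10 and 20, and in 126 it was 20 or more. Their median numbers of peaks were 12, 12.5 and 15, and a maximum over more peaks is higher by construction. Their median spans were 34135, 32829 and 40845 bp, and their median bases under peaks 5372, 7491 and 10213 bp. Covered shares had medians of 16.6%, 22.6% and 26.3%. Regions without a strong peak were thus as long as those of the middle group but less covered, and the largest of them held 46 peaks.

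Many peaks and much signal were not the same thing. With signal taken as fold enrichment times width, summed over a region, dense regions held 13.0% of the signal of the list against 16.7% of its peaks. Among the 389 joined regions of highest signal 143 (36.8%) were dense, 246 held fewer than 10 peaks and 60 of those were 1 peak alone. Of all joined regions 2.47% were dense, and a sum over more peaks is higher by construction. Of the 20 highest, 15 were dense.

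The region with most peaks, chr17:75368004-75495460, was also the longest and the one with most bases under peaks. It held 65 peaks over 127 kb, 34.0% covered, in 33 blocks. Only 4 of its peaks reached 10-fold, and the rest had lower values around a regional median of 5.19. The strongest, chr17:75466834-75469271, was 2438 bp wide with 33.4-fold enrichment. The next, chr17:75446002-75449341, had 28.0-fold, and the widest, chr17:75368004-75371619 at the very start of the region, had 15.6-fold over 3616 bp.

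The region second by peaks, chr10:80856706-80964252, was broad and low. Its 60 peaks covered 40.2% of 108 kb, but the highest of them, chr10:80896859-80900251, had 13.6-fold enrichment and only 2 reached 10-fold. Its widest peak measured 5519 bp at 8.65-fold. Bases under peaks came to 43263 bp, nearly the 43353 bp of the chromosome 17 region, from peaks that were all under 14-fold.

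The region at chr1:27845096-27933885 held 48 peaks and was 38.2% covered, with 3 peaks of at least 10-fold. Of these chr1:27901294-27902890 reached 20.2-fold, and the wider chr1:27896222-27900316 next to it reached 14.9-fold over 4095 bp. A plainer example of density without strength was chr11:20008813-20087256, where none of 46 peaks reached 10-fold and the highest was 9.77-fold. It spanned 78.4 kb, was 27.1% covered and fell into 28 blocks.

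With 43 peaks in 106 kb, the region at chr16:85586907-85692926 was 21.6% covered and had 18.0-fold enrichment at its strongest peak. At chr12:124964636-125052830 there were 42 peaks and 38.9% coverage, and 6 peaks of at least 10-fold were spread along the region. The strongest of them, chr12:125050357-125052830 at 25.1-fold, was the last peak of the region. The region at chr15:66971908-67072869 had 41 peaks over 101 kb, of which 1 reached 10-fold.

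The next 3 by number of peaks held 4 or 5 peaks of at least 10-fold each. The region at chr19:39138279-39220219 had 40 peaks, 5 of them of at least 10-fold, and its strongest, 20.3-fold, was the first of the region and only 679 bp wide. The region at chr17:17399742-17509789 had 39 peaks and 4 strong ones, up to 21.2-fold. The region at chr21:46825018-46910388 had 38 peaks and 5 strong ones near its start. The one farthest from the start, with its summit at 25.7 kb, was also the strongest, chr21:46849068-46852861 at 28.5-fold over 3794 bp. The fifth longest region, chr19:2139726-2245635, had 38 peaks and 8 of at least 10-fold, the highest number found, reached in 3 dense regions.

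**Figure D4:**
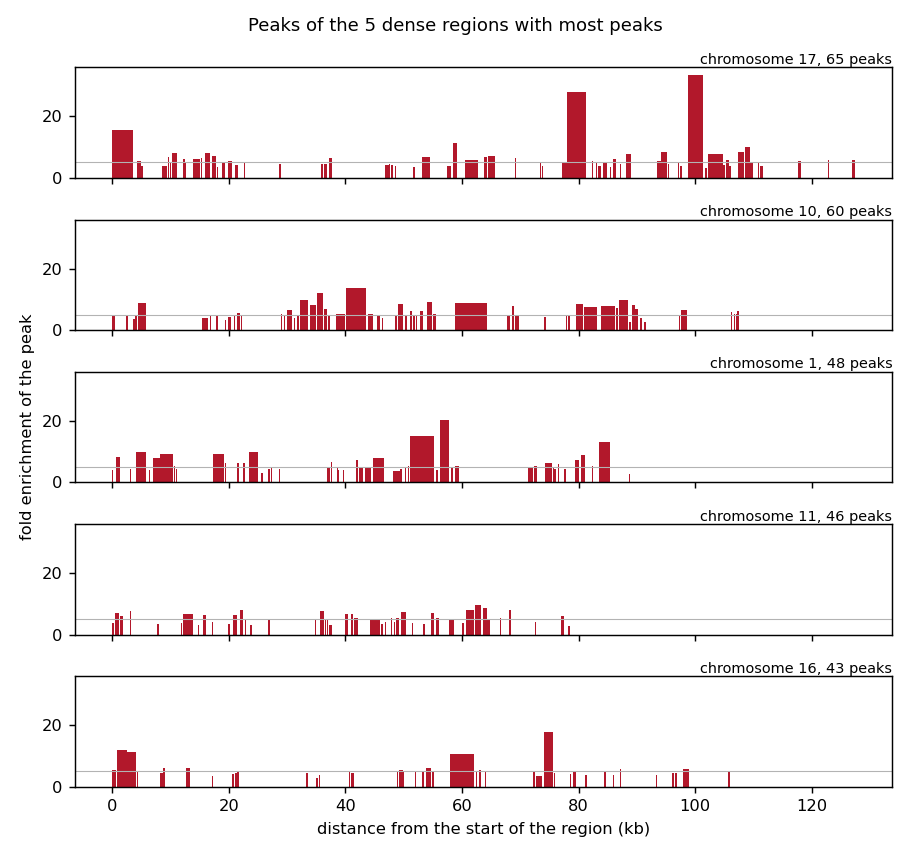
Each peak of the 5 dense regions with most peaks, drawn as a bar from its start to its end (horizontal axis, kb from the start of the region) with its fold enrichment as height (vertical axis) and a grey line at 5-fold. The chromosome 17 region shows a few tall peaks up to 33.4-fold among many low ones, and no peak of the chromosome 11 region reaches 10-fold.

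Among the dense regions, the 5 with the highest single peaks held 13 to 21 peaks. Higher peaks lay outside dense regions. The highest was 67.7-fold among peaks that joined no other, 78.7-fold in regions of 2 to 4 peaks and 59.4-fold in regions of 5 to 9. Across all 389 regions the strongest peak went weakly up with the number of peaks (Spearman's rho 0.22), from a median of 13.6-fold in regions of 10 to 14 peaks to 19.3-fold at 20 to 29 and 18.3-fold at 30 or more. At chr19:59049932-59096130, with 13 peaks, 1 peak of 3580 bp had 49.5-fold enrichment, while the regional median was 5.81. At chr12:109878506-109916205, also with 13 peaks, the strongest was 3927 bp wide with 48.2-fold enrichment. The regions at chr19:56135689-56199973, chr10:121410296-121448181 and chr17:79867641-79900388 had 21, 13 and 14 peaks and maxima of 45.2-fold, 43.8-fold and 42.9-fold. In all 5 the strongest peak was also the widest.

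The covered share ran from 8.05% to 78.9%. The most covered region, chr22:36719768-36732979, had 10 peaks in 13.2 kb and was covered over 78.9% of its span. Its widest peak, 5179 bp with 32.2-fold enrichment, made up 49.7% of its covered bases. It fell into 2 blocks. Next came chr19:6269232-6280116 (73.4%), chr11:63674743-63688287 (68.3%), chr2:66659958-66674213 (62.9%) and chr11:118773375-118800914 (59.7%). The shortest region, chr12:4378198-4387879, held 10 peaks in 9682 bp and was 53.1% covered.

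At the other end, chr20:25520010-25566217 had 11 peaks in 46.2 kb and 8.05% of its bases under peaks. The regions at chr7:131290653-131334915, chr8:37639398-37673104, chr15:66909641-66953973 and chr3:12964194-13010667 were covered over 8.47%, 8.70%, 8.85% and 8.96%. Their strongest peaks had 6.42-fold to 11.2-fold enrichment. These regions met the rule with narrow peaks, the widest of each being 504 to 959 bp.

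Some dense regions followed each other closely. Between consecutive dense regions of 1 chromosome the median distance was 1.23 Mb over 367 pairs, but 22 pairs were at most 25 kb apart and 10 at most 15 kb. The closest pair, chr1:156044858-156059906 and chr1:156072938-156100208, was separated by 13031 bp. Joining neighbours up to 25 kb gave 20 groups holding 42 dense regions. In the largest, chr10:80826504-81051041, 3 dense regions of 12, 60 and 27 peaks stood in a row, 99 peaks over 225 kb. Another 3 in a row lay at chr16:4266691-4445465 with 53 peaks, and a pair at chr5:77791721-77955081 had 57.

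Dense regions were spread unevenly over chromosomes. Chromosomes 1, 19 and 17 held 49, 41 and 36 of them, 32.4% of all. Of the members they held 12.1%, 11.4% and 10.4%, and of the other peaks 10.1%, 5.61% and 5.62%. Chromosome 1 also had the most peaks, 3801, of which 19.4% were in dense regions, against 16.7% of all peaks. Per Mb between first and last peak it held 0.197 dense regions, against 0.698 on chromosome 19 and 0.445 on chromosome 17. Of the peaks on chromosome 19, 697 of 2406 were in dense regions (29%, exact binomial 95% interval 27.2 to 30.8), and on chromosome 17 638 of 2351 (27.1%, 25.3 to 29). Chromosomes 16, 20 and 22 followed at 23.4%, 23.1% and 22.2%. The lowest autosomes were chromosome 13 at 5.73% (4.14 to 7.69), 4 at 6.72%, 6 at 8.12% and 2 at 8.22%. These intervals cover counting error only, and neighbouring peaks are not independent.

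No dense region lay on X or Y. The largest joined region was of 8 peaks on X and of 3 on Y. Members were 0 of 614 peaks on X and 0 of 20 on Y. With 3 peaks taken as the limit for a count of 0, the shares would be 0.489% and 15.0%. The upper ends of the exact binomial intervals used for the other chromosomes were 0.599% and 16.8%. Both kinds of limit treat peaks as independent, but peaks enter a dense region only as a group. These limits therefore set no bound on the share of peaks in dense regions on X or Y. The X chromosome had the fewest peaks per Mb after Y, 4.04 between its first and last peak against 6.79 on chromosome 4 and 41.0 on chromosome 19, and its peaks had a median fold enrichment of 7.25.

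The share of peaks in dense regions went with the overall density of peaks. Over 22 autosomes Spearman's rho between peaks per Mb and the share in dense regions was 0.89, as a description of values that come from the same peaks. Chromosome 5 stood above chromosomes of like density, with 17% in dense regions at 9.61 peaks per Mb, beside 8.12% at 10.0 on chromosome 6 and 11.1% at 9.92 on chromosome 3. The part of peak density in these shares was not tested. Chromosomes 17 and 19 together held 21.8% of members and 11.2% of other peaks.

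Lower enrichment in dense regions was found on nearly every chromosome. Members had the lower median in 21 of 22 autosomes, with medians of 4.79 to 5.82 against 5.43 to 6.26 for other peaks of the same chromosome. The exception was chromosome 13, where 41 members in 3 regions had a median of 5.82 and other peaks 5.81. The median width of members was lower in 19 of 22 autosomes, and on chromosome 11, 1 of the other 3, it was 448 bp against 385 bp.

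**Figure D5:**
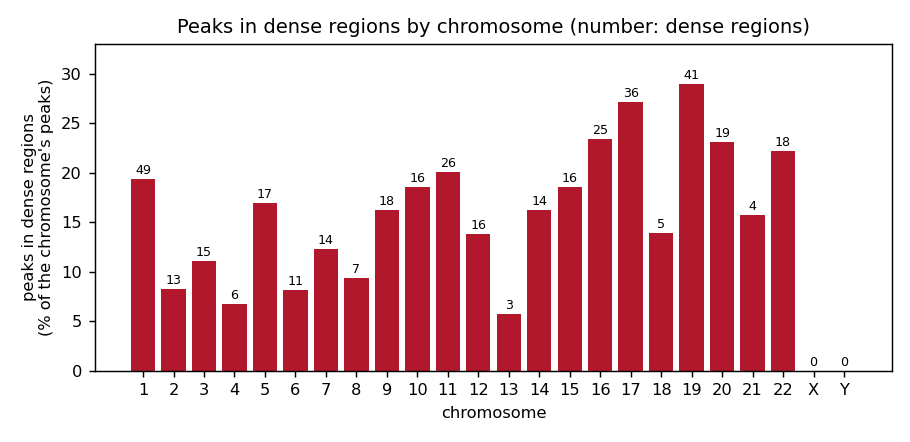
Share of each chromosome's H3K27ac peaks that lie in dense regions (vertical axis, %), by chromosome, with the number of dense regions above each bar. Chromosomes 19 and 17 are highest at 29% and 27.1%, chromosome 13 is the lowest autosome at 5.73%, and X and Y have none.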

How the data were processed

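H3K27ac was measured by immunoprecipitation and sequencing in day 15 CHIR cells, in 2 replicates that the labels give as merged. Bowtie2, MACS2 and hg19 are named in the submitters' processing notes. Not given in the sources used here are their versions, the thresholds and how the replicates were merged. The authors deposited for each peak a fold enrichment (a linear ratio), −log10 p-values and −log10 q-values, and a score that equalled 10 times the −log10 p rounded down for 99.9% of peaks. The lowest −log10 p was 5.02, the narrowest peak was 174 bp, and sequencing depth is unknown. The list held 36596 peaks, of which 11 on unplaced sequences were left out. Peak names were numbered up to 36607; the other 11 numbers were not analysed here, and none falls between 2 peaks of a dense region.

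Joining was done with pandas 2.3.3. It was tested on simulated data, and bedtools 2.31.1 gave the same 389 dense regions. Intervals of medians are order-statistic (binomial) 95% intervals over peaks or regions. No test was made, since 1 merged list has no replicates. Regions named were the 10 with most peaks, the 5 longest, most covered in bases, strongest, most and least covered, and the shortest; the regions on chromosomes 4, 1, 5, 10 and 16 given for blocks and neighbours were named after their values were seen. The members and lists were chosen with earlier results of these data known.

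The raw UMI counts of the CHIR library that the authors deposited (Cell Ranger 6.1.1, GRCh38, per the submitters' processing notes) were summed per gene over all cells and expressed as CPM, with no doublet removal. They come from another build and were used only for markers. The planned expression of genes in dense regions was not run, as no hg19 annotation was used.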

Additional observations from a re-analysis of the deposited data

How the results depend on the processing

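The number of dense regions depends on the settings of the rule. It was 172 with a joining distance of 5000 bp and 590 with 25000 bp, 632 and 148 when at least 8 or 15 peaks were required, 85 when only peaks of at least 5-fold were joined, and 100 when peaks within 500 bp counted as 1. Peaks in dense regions numbered 2416, 10521, 3347, 1172 and 1437 at 5000 bp, 25000 bp, 15 peaks, 5-fold and 500 bp, and 8163 at 8 peaks. Median spans were 18466, 66380, 30057, 50981 and 59680 bp at 5000 bp, 25000 bp, 8 peaks, 15 peaks and 500 bp. Median covered shares were 41.1%, 13.5%, 23.9%, 28.1% and 24.8% at 5000 bp, 25000 bp, 15 peaks, 5-fold and 500 bp. The share on chromosome 19 was 10.6%, 51.2%, 38.7%, 19.4%, 12.7% and 13.1% at 5000 bp, 25000 bp, 8 peaks, 15 peaks, 5-fold and 500 bp. The causes were not tested. The ratio of median fold enrichment, members to other peaks, stayed below 1 in all 12 alternatives, at 0.924 with 5000 bp, 0.874 with 5-fold, 0.869 with 500 bp, 0.847 with regions weighted equally, 0.969 against regions of 5 to 9 peaks and 0.823 against peaks that join no other. The ratio of median widths was 0.987 with 5000 bp and turned to 1.03 with 5-fold; the cause was not tested. With a −log10 q of at least 5, 343 regions were dense, and 342 of the 389 regions shared a base with one. At 5000 bp 153 did, or 100 with at least 50% of their bases shared. Counting equal intervals once changed nothing, as no 2 peaks had the same interval, and leaving out X and Y changed no dense region. X or Y held 1 dense region with 25000 bp or 8 peaks. No paired analysis was possible because both replicates are in 1 merged list, and no replicate could be left out.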
